A study of Mus musculus with 6 samples.

Results

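Mes2 is one of the 2 clusters that the study of the adult mouse olfactory bulb named mesenchymal, and the collagen gene Col1a1 and the proteoglycan gene Dcn are given as its marks. Its members were the cells that the deposited annotation places in the cluster matching the study's Mes2, 653 of 51426 annotated cells in 38 clusters. The annotation has the names of the mesenchymal pair exchanged against the study's own list of clusters. The cluster of 653 cells, whose numbers per library are those the study lists for Mes2, is written there as Mes1, and the cluster of 230 cells as Mes2. Mes2 here means the 653 cells, and Mes1 the 230.

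Cells came from C57BL/6NJ mice of 14 weeks, in 6 libraries of pooled cells from 3 mice each, 2 per condition. Naris-occluded mice had spent 6 weeks with one nostril closed, trained mice had spent 6 weeks on a go/no-go odor discrimination task under water deprivation, and control mice had received neither. The study states that the closed side of occluded mice gave the deprived sample. In the same place it describes control tissue as the open side of occluded mice, so control and occluded libraries may share animals. Mice of both sexes were used, and each pool was dissociated as a bulb with some of its surrounding tissue. Mes2 held 125 and 121 cells in the occluded, 135 and 72 in the trained and 121 and 79 in the control libraries. The median Mes2 cell had 1339 unique molecular identifiers (UMIs, each counting 1 captured transcript), 644 detected genes and 13.9% mitochondrial UMIs, and the summed UMIs per library ran from 141938 to 304030. In the Mes2 sums, Xist was at 0 UMIs in the 3 libraries numbered 1 and at 190 to 390 in the 3 numbered 2, while the Y-linked gene Ddx3y was at 17 to 30 and at 0, so the replicate number follows the sex of the pool, which the sample labels do not give.

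Fibroblasts of the brain coverings lay down collagen and proteoglycans, line the fluid space around the brain and carry transporters and enzymes that act on solutes of the cerebrospinal fluid. Textbook products of these cells include lipocalin-type prostaglandin D synthase, insulin-like growth factor 2 and retinoic acid. Mural cells, the pericytes and smooth muscle cells on vessel walls, also belong to the mesenchymal lineages of the brain. Mes1, Mural1 (158 cells) and Mural2 (769 cells) were therefore the clusters set beside Mes2.

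Col1a1 and Dcn were highest in Mes2 among all 38 clusters. Levels are UMIs per 1000000 UMIs of the summed cells (CPM), not scaled by transcript length because only 3′ ends were counted, and errors are SDs over the 6 libraries (n = 6), which span the 3 conditions. Col1a1, a chain of type I collagen, stood at 405 and 311 CPM in the occluded, 305 and 356 in the trained and 277 and 247 in the control libraries. Its mean was 317 ± 56.6 CPM, against 165 ± 48.5 in Mes1, 4.74 in Mural1 and 2.72 in Mural2. Dcn (decorin), a small proteoglycan bound to collagen fibrils, was at 1441 and 1996, at 1121 and 2257, and at 1722 and 2170 CPM in the same order. Its lowest Mes2 library lay above its mean of 390 ± 239 CPM in Mes1, 33.2 in Mural1 and 62.8 in Mural2. The label marks were thus present in every Mes2 library, while Col1a1 was shared with Mes1 at a log2 ratio of 0.93 ± 0.51.

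In single cells, Dcn had a UMI in 58.2% of Mes2 cells and Col1a1 in 33.7%. In OEC5, a cluster of olfactory ensheathing glia with a median of 2246.5 UMIs, the shares were 0.517% and 0.0575%, a background level for genes these cells should lack. After each cell was thinned to 500 UMIs, which every Mes2 cell allowed, the shares were 34.8% and 9.49% in Mes2 and 0.115% and 0% in OEC5. In Mes1, Dcn had a UMI in 20.9% of cells and Col1a1 in 28.3%, and in 9.13% and 9.57% at 500 UMIs. At equal depth, detection of Col1a1 thus did not set Mes2 apart from Mes1. Of the 8 genes Col1a1, Dcn, Igf2, Slc6a13, Fmod, Ogn, Slc6a20a and Aebp1, 96.5% of Mes2 cells held at least 1 and 62.8% at least 4, and 23 cells held none. At 500 UMIs, 66.6% of Mes2 cells held at least 2 of the 8, against 13.04% of Mes1, 0.633% of Mural1, 6.76% of Mural2 and 0% of OEC5 cells. Most Mes2 cells therefore carried several of these transcripts at the same time. The 8 genes were the label marks and genes chosen with their high levels in Mes2 known. The gap to the other clusters therefore partly follows from that choice and is a description without a test.

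**Figure D1:**
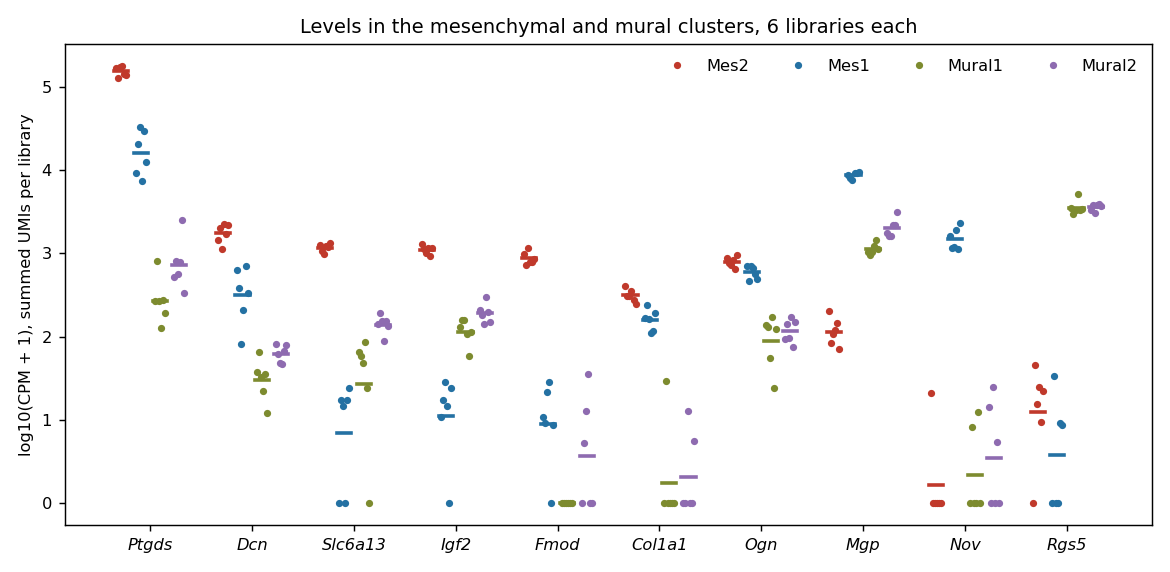
The log10 of CPM plus 1 (vertical axis) of 10 named genes in Mes2, Mes1, Mural1 and Mural2, with 1 point per library and a bar at the mean of the 6 libraries on that scale. The Mes2 points of Dcn stand for 1121 to 2257 CPM and those of Fmod for 730.1 to 1171 CPM, above every point of the other clusters, while those of Mgp stand for 70.5 to 201 CPM, below all points of Mes1 and the mural clusters.

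Ptgds, the lipocalin-type prostaglandin D synthase that is secreted into cerebrospinal fluid as beta-trace, was the most abundant of the secreted products described here. It made up 16.7% and 12.9% of all Mes2 UMIs in the occluded, 17.3% and 17.9% in the trained and 14.3% and 13.9% in the control libraries. The mean share of 15.5 ± 2.07% compared with 1.88 ± 1.09% in Mes1, 0.0323% in Mural1 and 0.0916% in Mural2. Across single Mes2 cells the share ran from 0% in 13 cells over a median of 14.6% to 65.8% in the cell with most, and the 10th and 90th percentiles were 1.70% and 32.6%. Library medians lay between 11.2% and 17.9%, so this range of cells was present within each library. Ptgds UMIs were also found in 86.2% of OEC5 and 36.3% of endothelial EC1 cells. At 500 UMIs, the shares of cells with a Ptgds UMI were 96.9% in Mes2, 57.8% in Mes1, 50.1% in OEC5 and 13.7% in EC1.

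**Figure D2:**
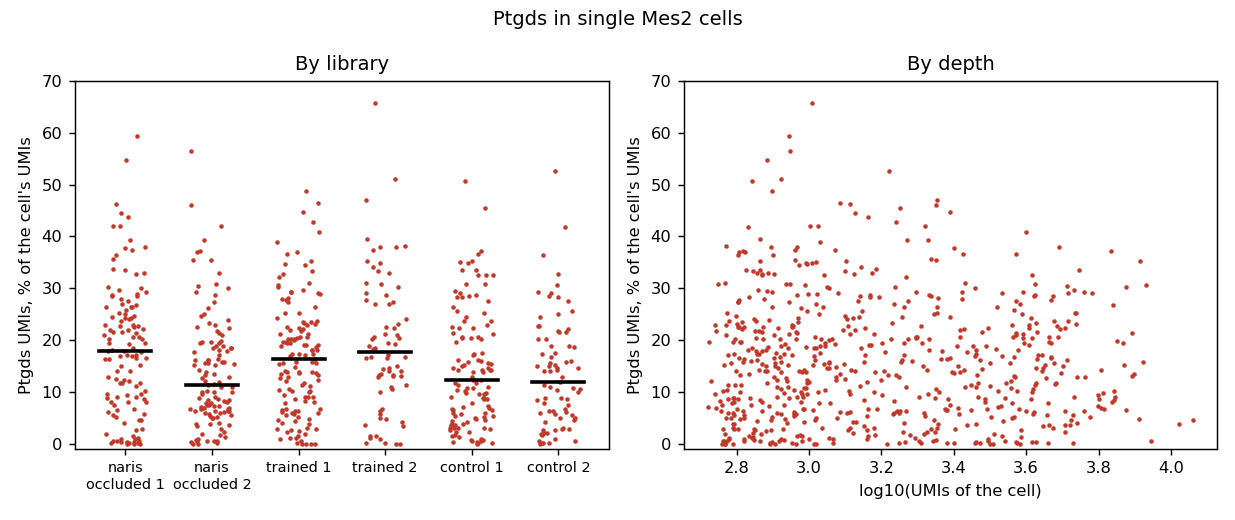
Ptgds as a percentage of a cell's UMIs (vertical axes) in single Mes2 cells, by library with a bar at each library's median (left) and against the log10 of the cell's UMIs (right). The 6 medians lie between 11.2% and 17.9%, and single cells reach from 0% to 65.8%.

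Because one gene took this large a share, the scale of all other genes depends on it. The median log2 ratio over all genes compared was −0.27 against Mes1, −0.43 against Mural1 and −0.34 against Mural2, and −0.078, −0.22 and −0.12 when Ptgds was left out of the totals. Ratios below are to be read against those medians. The Ptgds level itself varied little with depth: in 4 groups of Mes2 cells of rising depth, with median UMIs of 660, 992, 2034 and 4282, it was 159111, 176882, 160166 and 148222 CPM. Col1a1 went from 161 CPM in the shallowest to 371 in the deepest group, and the 13 mitochondrially encoded genes from 235864 to 91568 CPM.

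A gene was counted as higher or lower in Mes2 when the log2 ratio, with 10 CPM added to both levels, was at least 2 in the same direction in each of the 6 libraries. Since the clusters had been made from the same expression values, these counts are descriptions without a test. Against Mes1, 57 of 3396 genes with at least 50 CPM on the higher side were higher in Mes2 (1.68%) and 61 were lower (1.8%). Against Mural1 the counts were 84 higher (2.07%) and 192 lower (4.74%) of 4052, and against Mural2 81 higher (2.25%) and 134 lower (3.72%) of 3606. The balance of these counts depended on scaling. Against Mes1 it turned, with 69 higher and 52 lower genes with TMM factors and 66 and 54 with Ptgds left out of the totals. With TMM factors, the counts were 124 higher and 149 lower against Mural1 and 107 and 113 against Mural2, and with Ptgds left out of the totals 106 and 116 against Mural2. Over all genes the profile of Mes2 was nearest to that of Mes1 (Pearson r = 0.865 across 8795 genes of log2 levels), then to ensheathing cluster OEC4 (r = 0.814), Mural2 (r = 0.813) and endothelial EC2 (r = 0.810), and genes are not independent replicates.

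Among 1188 genes with at least 100 CPM in Mes2, 87 had their highest level of the 38 clusters there (7.32%), and 22 of them were at least 4-fold above the next cluster. Fmod (fibromodulin, a proteoglycan of collagen fibrils) led with 889 ± 163 CPM against 12.8 in the next cluster, the macrophage cluster Mf. The sulfate transporter gene Slc13a4 stood at 570 ± 78.3 CPM against 28.3 in the next, Mes1. Clec3b (tetranectin) was at 174 ± 40.9 CPM, Fgfbp1, a carrier of fibroblast growth factors, at 515 ± 132, and Cemip, which takes part in hyaluronan breakdown, at 201 ± 63.8 CPM. Kl (klotho, a co-receptor for fibroblast growth factor 23) reached 104 ± 28.1 CPM and Lepr, the leptin receptor, 114 ± 23.8 CPM, with 3.38 and 12.4 CPM in the next clusters. A set of 20 genes was counted as higher in Mes2 than in Mes1, Mural1 and Mural2 alike: Spp2, Fmod, Ptgds, Nnat, Slc13a3, Slc7a11, Lepr, Fgfbp1, Kl, Slc13a4, Slc6a13, Cemip, Aldh1a2, Clec3b, Sphk1, Ppp1r1a, Serpind1, Apod, Slc22a2 and Slc22a6.

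Of the 20 genes with the largest ratio to the next cluster, 17 have a promoter in the RefSeq sequences used (mouse build GRCm38.p6, the first listed start of each gene). Clec3b, Lum and Gpr182 were not among them, nor were Col1a1 and Dcn. The 60 bases before the start are printed for Ptgds and Fmod, which stood out by abundance and by ratio, at chr2:25469750-25469809 on the minus and chr1:134037194-134037253 on the plus strand. They are followed by those of Cemip, at chr7:84086506-84086565 on the minus strand, the single one of the 17 with the letters TATAAA, in capitals, on its own strand between 16 and 45 bases before the start.
Ptgds: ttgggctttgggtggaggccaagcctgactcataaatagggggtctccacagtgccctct
Fmod: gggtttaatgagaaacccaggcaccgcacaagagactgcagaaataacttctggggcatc
Cemip: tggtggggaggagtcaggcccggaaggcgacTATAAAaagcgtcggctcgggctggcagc
That match in 1 of 17 promoters (5.88%) compares with 639 of 27025 (2.36%) among all promoters. On either strand within the 250 bases before the start, TATAAA was present in 2 of 17 (11.8%) and in 3504 of all (12.97%). The median number of CG pairs in those 250 bases was 6 in both sets. A match describes the sequence and not a site in use.

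Proteoglycans of collagen fibrils were abundant in Mes2. Of 15 small leucine-rich proteoglycan genes in the table, 7 reached 100 CPM in Mes2 and 6 of those had their highest level of the 38 clusters there: Dcn, Fmod, Lum, Ogn, Omd and Prelp. Fmod was at 983 and 730.1 CPM in the occluded, 1171 and 796 in the trained and 792 and 860 in the control libraries. Mes1 had 12.3 ± 9.91 CPM (log2 ratio 5.44 ± 0.62), Mural2 had 8.44 ± 13.6, and in Mural1 Fmod had 0 UMIs, so that Mes2 was at least 181-fold higher than the limit set by 3 counts over that cluster. Ogn (osteoglycin), by contrast, was nearly as high in Mes1 (598 ± 104 CPM) as in Mes2 (801 ± 109 CPM). Lum (lumican) varied most, from 105 to 374 CPM between libraries, and Omd (osteomodulin) little, at 149 ± 13.4 CPM. Aspn (asporin) was near background in Mes2, at 3.01 CPM against 575 in Mural2, and Bgn (biglycan) was lower than there, at 234 against 522 CPM. Counted over the list, 1 of 8 genes compared was higher and none lower than in Mes1 (median log2 ratio 1.82), 5 of 9 were higher and 1 lower than in Mural1 (2.996), and 4 of 9 were higher and 1 lower than in Mural2 (2.60).

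None of 13 fibrillar collagen and collagen-processing genes compared with Mes1 was counted in either direction (median −0.35). Col1a2, the second chain of type I collagen, was at 580.3 ± 51.6 CPM in Mes2 and 413 ± 123 in Mes1, and Col3a1, the chain of type III collagen, at 166 ± 52.6 and 110 ± 27.4 CPM. Against Mural1, 2 of 8 were higher (1.75), and against Mural2 1 of 9 (0.071), where Col1a2 had 114 and Col3a1 83.7 CPM. Serpinh1, a chaperone of collagen folding, and Sparc, a collagen-binding protein, were at 234 and 473 CPM in Mes2 and at 400 and 740 CPM in Mural2. The 2 genes counted against Mural1 were Col1a1 and Col1a2, and the 1 counted against Mural2 was Col1a1. The list summed to 2394 to 3166 CPM in Mes2 and to 1709 to 1944 CPM in Mural1, without overlap. Of the basement membrane genes, Col4a1, a chain of type IV collagen, was at 61.6 CPM in Mes2 against 356 in Mural1 and 305 in Mural2, and the median of the list was −0.78 against Mural1 (0 of 13 higher, 1 lower), −1.02 against Mural2 (0 of 11 in either direction) and 1.14 against Mes1 (2 of 8 higher, 0 lower).

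Of the other matrix genes, Mgp (matrix Gla protein, an inhibitor of calcification) was at 201 and 82.4 CPM in the occluded, 105 and 119 in the trained and 147 and 70.5 in the control Mes2 cells, while Mes1 had 8761 ± 762 CPM, a log2 ratio of −6.14 ± 0.52. Mgp was also higher in both mural clusters, at 1134 and 2095 CPM. Nov, a matricellular signalling protein, was at 3.29 CPM in Mes2 and 1552 ± 486 in Mes1, and Prg4, the lubricin of joint fluid, at 0.624 and 737 ± 343 CPM. Aebp1, a collagen-binding protein, ran the other way, with 1589 and 1198, 1433 and 1450, and 1123 and 1170 CPM in the occluded, trained and control Mes2 cells and 204 ± 117 in Mes1. Efemp1 (fibulin 3) was at 690 ± 103 CPM in Mes2, 605 ± 90.8 in Mes1 and near background in both mural clusters. Of the elastic fibre and other matrix genes, 0 of 26 were counted as higher and 5 as lower than in Mes1 (Mgp, Nov, Col8a1, Col8a2 and Col6a2, median −0.27), while 4 of 17 were higher and 1 lower than in Mural1 (1.55) and 3 of 16 higher and 1 lower than in Mural2 (1.67).

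**Figure D3:**
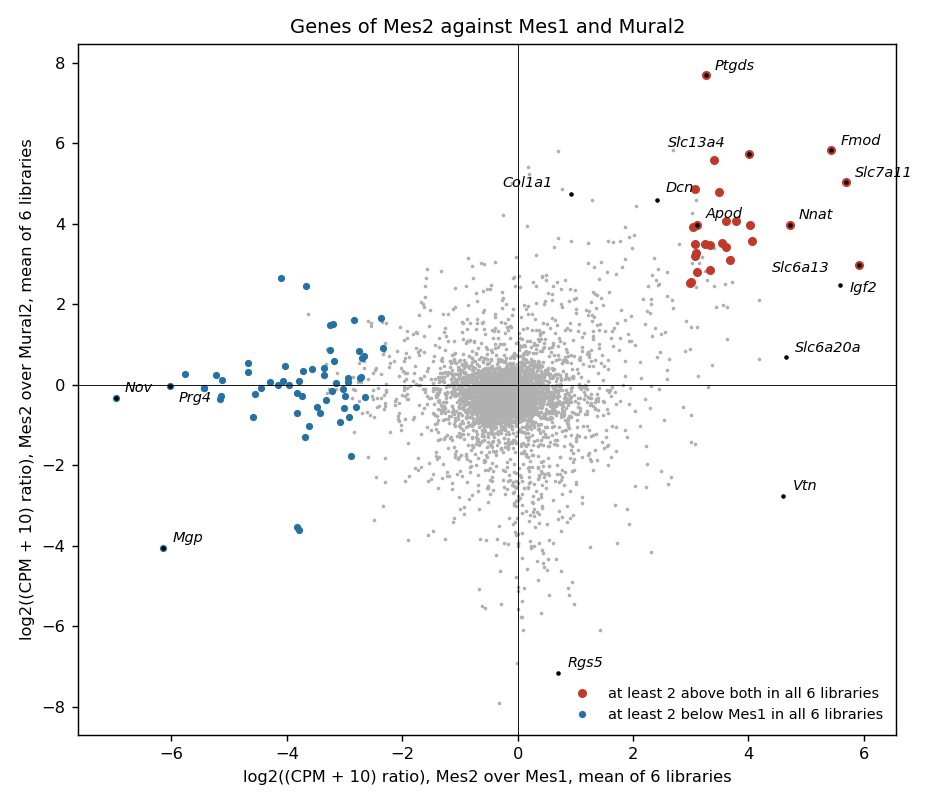
Mean log2 ratio over the 6 libraries of Mes2 to Mes1 (horizontal axis) against that of Mes2 to Mural2 (vertical axis) for 4106 genes, 1 point per gene, with 10 CPM added to both levels and black dots on the genes labelled. Red points are the 27 genes counted as higher than both and blue points the 61 genes counted as lower than Mes1, and Fmod, Slc7a11, Slc6a13 and Ptgds lie at the upper right while Mgp and Nov lie far to the left.

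Transporter genes were counted in both directions between Mes2 and Mes1. Of 33 compared, 11 were higher in Mes2 and 9 lower, with a median log2 ratio of −0.25. Slc6a13, the GABA and taurine transporter GAT2, stood at 1247 and 1060 CPM in the occluded, 986 and 1218 in the trained and 1190 and 1346 in the control Mes2 cells. Mes1 had 11.6 ± 9.54 CPM, a log2 ratio of 5.92 ± 0.81, and the next cluster, Mural2, had 142 ± 33.5. Slc7a11, the cystine and glutamate exchanger, was at 1531 ± 192 CPM against 29.9 in Mes1, and Slc6a20a, a carrier of proline and related amino acids, at 763 ± 88.6 against 26.8. The Mes2 and Mes1 libraries did not overlap for these 3 genes, each of which was highest of the 38 clusters in Mes2. For Slc6a20a the mural clusters were near, at 347 to 642 CPM per library in Mural2 and 228 to 445 in Mural1, against 662 to 901 in Mes2. At 500 UMIs, a Slc6a20a UMI was present in 25.7% of Mes2 and 22.5% of Mural2 cells, so detection hardly set these clusters apart. Slc1a3, the glutamate transporter GLAST, had 713 ± 104 CPM in Mes2 and 59.2 ± 23.2 in Mes1.

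Of the organic anion and cation carriers of the Slc22 family, Slc22a6 (OAT1) was at 321 ± 47.2 CPM in Mes2, 25.7 in Mes1, 2.93 in Mural2 and 0 in Mural1. Slc22a8 (OAT3) was at 363 ± 51.9 CPM in Mes2 and 41.0 in Mes1, and reached the Mes2 level in the endothelial cluster EC1 (372 CPM). Slc22a2 (OCT2) had 146 UMIs in Mes2 and none in Mes1, Mural1 or Mural2, which makes Mes2 at least 27.7-, 20.9- and 40.9-fold higher than the limits of 3 counts in those clusters. Slc13a3, a carrier of dicarboxylates, stood at 251 ± 45.0 CPM against 12.8 in Mes1.

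Other transporter genes were higher in Mes1. Slc4a10, a sodium-coupled bicarbonate transporter, was at 21.9 ± 7.41 CPM in Mes2 and 1129 ± 276 in Mes1, and Slc47a1, the proton-coupled exporter MATE1, at 2.25 and 444 ± 107. Slc26a7 and Slc26a2, anion exchangers, were at 1.72 and 4.84 CPM in Mes2 and 402 and 327 in Mes1, and Slc38a2, a neutral amino acid transporter, at 199.7 and 1993 CPM. Fxyd5, a regulator of the sodium pump, was at 47.6 and 1838 CPM. Against the mural clusters, 6 of 30 transporter genes were higher and 6 lower than in Mural1 (median 1.04), and 7 of 24 higher and 2 lower than in Mural2 (0.93).

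**Figure D4:**
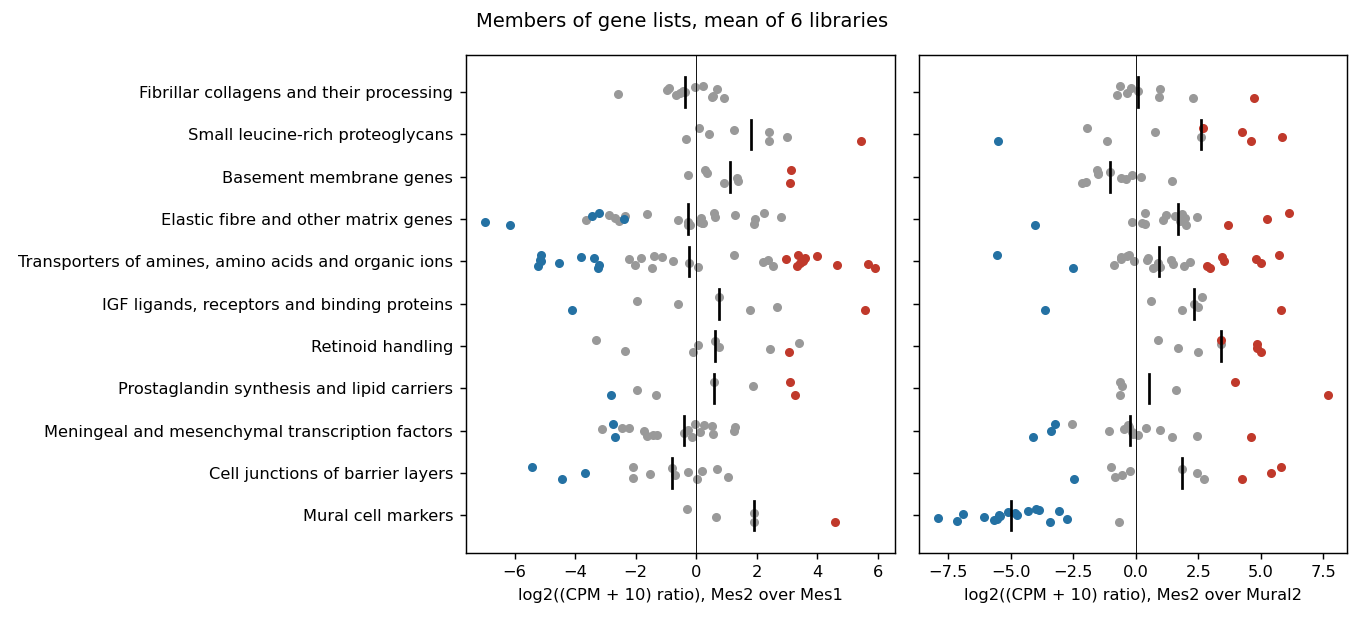
Mean log2 ratio over the 6 libraries, with 10 CPM added, of Mes2 to Mes1 (left) and to Mural2 (right) for the compared members of 11 gene lists, 1 point per gene, with a bar at the list median and the counted genes in red (higher) and blue (lower). Transporters reach from strongly higher to strongly lower against Mes1, where 11 of 33 were counted as higher and 9 as lower, and 17 of 18 mural markers were counted as lower against Mural2.

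Igf2, a fetal growth factor that stays active in the brain coverings of adults, was at 1293 and 1127 CPM in the occluded, 1005 and 1158 in the trained and 918 and 1170 in the control Mes2 cells. The next cluster, Mural2, had 196 ± 57.0 CPM and Mes1 15.1 ± 9.69, so no Mes2 library overlapped those of Mes1 or the mural clusters. A UMI of Igf2 was present in 62.2% of Mes2 and 3.91% of Mes1 cells. Igfbp2, a binding protein of IGFs, was at 2512 ± 263 CPM in Mes2, 413 ± 178 in Mes1 and 36.3 in Mural2. Other binding proteins were placed elsewhere, with Igfbp6 at 90.2 CPM in Mes2 and 1684 ± 233 in Mes1 and Igfbp7 at 406 in Mes2 and 5049 ± 362 in Mural2. Of 7 IGF system genes compared with Mes1, 1 was higher and 1 lower (median 0.76), and of 8 against Mural1 2 and 2 (2.36), and of 7 against Mural2 1 and 1 (2.34).

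Genes that make, carry and degrade retinoic acid were present in Mes2. Aldh1a2, which makes retinoic acid, was at 305 ± 21.7 CPM in Mes2 and 33.0 ± 24.0 in Mes1, the next cluster. Crabp2, a carrier of retinoic acid to the nucleus, stood at 341 ± 26.4 and 204 ± 65.0 CPM. Cyp26b1, which degrades retinoic acid, was at 158 and 333 CPM in the occluded, 97.9 and 47.5 in the trained and 25.1 and 106 in the control libraries and had 0 UMIs in Mes1 and both mural clusters. The lowest and highest libraries thus lay far apart for the degrading enzyme and close together for Aldh1a2 and Crabp2. Of the retinoid genes, 1 of 9 was higher and none lower than in Mes1 (median 0.64), 3 of 8 were higher and none lower than in Mural1 (3.13), and 4 of 8 higher and none lower than in Mural2 (3.41).

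Among lipid carriers, Apod (apolipoprotein D) was at 10787 ± 1580 CPM in Mes2 and 1396 ± 665 in Mes1, and Apoe at 12640 ± 401 and 3514 ± 723 CPM. Ensheathing cluster OEC3 had more Apod (12754 CPM) and the macrophage cluster Mf more Apoe (51643 CPM) than Mes2. Clu (clusterin) went the other way, with 105 CPM in Mes2 and 847 in Mes1. Of the prostaglandin and lipid carrier genes, 2 of 7 were higher and 1 lower than in Mes1 (median 0.60), 3 of 5 higher and none lower than in Mural1 (2.64), and 2 of 6 higher and none lower than in Mural2 (0.53).

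Among transcription factors of the brain coverings, Foxc1, required for the skull and meninges to form, was at 336 ± 80.0 CPM in Mes2 and 367 ± 70.5 in Mes1, and Zic1 at 370 ± 54.6 and 256 ± 83.5. Osr1 was at 242 ± 74.0 CPM in Mes2 and 93.8 ± 37.6 in Mes1, and with 0 UMIs in both mural clusters Mes2 was at least 46.9-fold and 91.9-fold above the limits of 3 counts there. Foxc2 was at 59.97 CPM in Mes2 and 204 in Mes1, and Foxp2 at 32.8 and 262. None of 19 genes of the list was counted as higher and 2 as lower than in Mes1 (median −0.41), 2 of 17 as higher and 1 as lower than in Mural1 (0.36), and 1 of 16 as higher and 3 as lower than in Mural2 (−0.23).

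The gap junction genes Gjb6 (connexin 30) and Gjb2 (connexin 26) had overlapping libraries, at 740 ± 142 and 369 ± 106 CPM in Mes2 and 646 ± 104 and 451 ± 155 in Mes1, and both had means between 3.18 and 10.9 CPM in the mural clusters. The epithelial cadherin gene Cdh1 had 0 UMIs in all 6 Mes2 libraries and 168 UMIs in Mes1, which puts Mes1 at least 98.3-fold above the Mes2 limit of 3 counts. Cldn11, a tight junction claudin, was at 75.2 CPM in Mes2 and 1096 ± 381 in Mes1, and Emb (embigin) at 0.990 and 479 ± 169. Alcam, an adhesion molecule, was highest of the 38 clusters in Mes2, at 1030 ± 183 CPM. Of the junction genes, 0 of 13 were higher and 3 lower than in Mes1 (median −0.81), 4 of 12 higher and 2 lower than in Mural1 (−1.24), and 3 of 11 higher and 1 lower than in Mural2 (1.85).

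Secreted signals of Mes2 included Cxcl12, a chemokine that attracts hematopoietic and neural progenitors, at 508 ± 59.5 CPM against 94.7 in Mes1, although EC1 had more (930.3 CPM). Serping1, the inhibitor of complement C1, was at 424 ± 51.0 CPM and highest of the 38 clusters in Mes2. Bmp7 was at 261 ± 44.7 CPM, Wnt5a at 148 ± 33.2 and Wnt6 at 272 ± 68.0, against 84.4, 9.10 and 52.8 in Mes1. Rspo3, an enhancer of WNT signals, was instead a Mes1 gene, at 5.62 CPM in Mes2 and 646 ± 169 in Mes1. Of 16 ligands and modulators of the BMP, WNT and TGF-beta families, 1 was higher and 2 lower than in Mes1 (median −0.78), and of 7 cytokine, chemokine and complement genes 1 was higher and none lower (1.40). The fibroblast receptor Pdgfra stood at 147 ± 31.3 CPM in Mes2, 31.0 in Mes1 and 1.85 in Mural2, but oligodendrocyte precursors had more (772 CPM). Vcam1, an adhesion molecule for white blood cells, was at 161 ± 38.4 CPM with 0 UMIs in Mes1, at least 42.5-fold above the limit there. Both belong to the list of fibroblast receptors and surface proteins, of which 1 of 14 was higher and 0 lower than in Mes1 (median −0.18). Against Mural1 4 of 15 were higher and 2 lower (1.53), and against Mural2 3 of 13 higher and 0 lower (1.17). The list summed to 2695 to 3261 CPM in Mes2 and 2915 to 4264 CPM in Mes1, which overlap.

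Most mural cell markers were low in Mes2 beside the mural clusters. Rgs5, a pericyte gene, was at 18.8 CPM in Mes2 and 3592 and 3600 in Mural1 and Mural2. Notch3 and Abcc9 had 0 UMIs in Mes2, which puts Mural2 at least 199- and 216-fold above the Mes2 limit of 3 counts. Acta2, the smooth muscle actin, stood at 1.21 CPM, and Pdgfrb, the receptor for platelet-derived growth factor B, at 110 ± 37.3 against 1254 in Mural2. Vtn (vitronectin), used as a pericyte marker, was an exception by level, at 1568 ± 234 CPM in Mes2, 57.6 in Mes1, 4234 in Mural1 and 10772 in Mural2. Of the mural markers, 13 of 18 were lower than in Mural1 (median −3.47) and 17 of 18 lower than in Mural2 (−4.98), and none was higher. Against Mes1, 1 of 5 was higher and none lower (median 1.90). For the sum of the list, Mes2 ranked 4th of the 38 clusters (mean 2023 CPM, against a median of 257).

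Markers of other cell types were also summed in Mes2. Summed over their lists, ensheathing markers came to 861 to 3474 CPM per Mes2 library (mean 2173, against 42695 in OEC3), endothelial markers to 1026 to 1284 CPM, neuron markers to 519.7 to 872 CPM and microglia and macrophage markers to 131 to 510 CPM (mean 264, against 26881 in MicroG1), and no marker of these 4 lists was at 0. Mes2 ranked 8th of the 38 clusters for endothelial markers (mean 1090 CPM, against a median of 355 over clusters). Astrocyte markers came to 1152 to 1396 CPM and oligodendrocyte markers to 895 to 1337 CPM, again with none at 0. The oligodendrocyte list held Pdgfra, which had a UMI in 21.4% of Mes2 cells. Of the epithelium and choroid plexus markers, 5 of 8 were among the deposited genes, with Cyp2g1 at 0. They came to 67.0 to 142 CPM in 5 libraries and to 863 CPM in trained replicate 1. There Ttr had 740 CPM, with 203 of its 204 UMIs in 1 cell. Mes2 ranked 3rd of 38 for their sum (mean 231 CPM, against a median of 5.76), to which Kl gave a mean of 104 CPM. Gjb6 of the astrocyte list and Kl of the choroid plexus list had their highest level of the 38 clusters in Mes2. Bone and cartilage markers came to 5.94 to 46.1 CPM, with Bglap, Ibsp and Matn1 at 0, and red blood cell markers to 39.9 to 362 CPM, with Alas2 at 0. No cell division gene reached the level needed for a comparison, and the 10 genes of that list summed to 12.6 to 29.7 CPM. Of the annotated cells, 42 Mes2 cells had a barcode sequence that also occurred in another library, and no barcode was Mes2 in 2 libraries.

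Mes2 cells themselves were not uniform in their matrix genes. Lum was detected in 107 cells, and among cells with at least 1000 UMIs, 94 with and 312 without a Lum UMI were set side by side, a split chosen after its values were seen and given without a test. The cells with Lum were deeper (median 3143 against 2236.5 UMIs). They had more Dcn (3552 ± 1279 against 1306 ± 312 CPM), Col1a1 (571 ± 151 against 255 ± 53.5) and Igf2 (1539 ± 232 against 987 ± 136) in 6 of 6 libraries. Transcripts of Ptgds (117564 against 167864 CPM), of the anion transporter Slc22a8 (258 against 433) and of Nnat (neuronatin, 1823 against 2950 CPM) were fewer in 6 of 6. Fmod (928 against 931 CPM) and Slc6a13 (1253 against 1249 CPM) had close means, so the genes that led Mes2 did not all vary together. Depth differed between these sets, and its part in the differences was not tested.

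The comparison of conditions asked whether Mes2 responded to loss or enrichment of odor input. Counts were summed over the Mes2 cells of each library and 4100 genes were tested with edgeR's quasi-likelihood test and Benjamini-Hochberg adjustment over all of them. With 2 libraries per condition, p-values measure the spread between pools, and this fit had no term for the sex of the pool. In naris-occluded against control Mes2 cells no gene was higher (0%) and 1 was lower (0.0244%), the gene S100a5. At an unadjusted p under 0.05 there were 64 higher and 72 lower genes, and DESeq2 called 0, with 13 at an unadjusted p under 0.05. In trained against control cells edgeR called no gene in either direction (0%), with 93 higher and 94 lower at an unadjusted p under 0.05 and a smallest adjusted p of 0.390, and DESeq2 called 0, with 32 unadjusted. In trained against naris-occluded cells no gene was higher (0%) and 1 was lower (0.0244%), the gene C1qa, with 93 and 98 unadjusted, while DESeq2 called 0 with 29 unadjusted. With the replicate number, which follows the sex of the pool, as a block, edgeR called 6 of 4100 genes in that comparison. S100a5 was higher and C1qa, Cxcl10, Ifit1, Ifit3 and Lyz2 were lower in trained cells.

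S100a5 encodes a calcium-binding protein of olfactory sensory neurons, whose axons enter the bulb. In Mes2 it was at 1031 and 641 CPM in the control, 332 and 135 in the occluded and 566 and 422 in the trained libraries, so control and occluded libraries did not overlap. The change from control to occluded was −1.86 ± 0.31 (log2, SE, adjusted p = 0.0231 by edgeR with Benjamini-Hochberg adjustment). Of the 246 UMIs in control 1, 53 were in 1 cell. The same gene was at 27958 and 25395 CPM in control and 14665 and 9865 CPM in occluded libraries in the cluster Neuron01, and at 914 and 611 against 301 and 107 CPM in Mural2. Over all cells outside Mes2 it stood at 1253 and 1202 against 538 and 208 CPM, and the change in Mes2 differed from theirs by −0.092 ± 0.22 and from that of Mural2 by 0.067 ± 0.29 on the log2 scale (adjusted p = 1 for each by edgeR). The adjusted p was 0.268 without occluded replicate 2 and 0.0868 without control replicate 1 by the same edgeR test. Without cells holding markers of another class (10 to 20 cells per library left), the change was −1.13 (adjusted p = 0.950, edgeR). Of 7 neuron markers tested in Mes2, 6 had lower and 1 higher values in occluded than in control cells. Their median log2 change was −0.53, and none was called. Of all 4100 genes tested, 2072 had higher and 2028 lower values in that comparison (median 0.0036). Omp, one of them by list, had 3 and 0 UMIs in occluded and 6 and 6 in control Mes2 cells. The part of S100a5 RNA from other cells in the Mes2 values was not tested.

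C1qa, a chain of complement C1q made by microglia and macrophages, was at 168 and 161 CPM in occluded, 39.9 and 41.6 in trained and 71.2 and 70.5 in control Mes2 cells. The change from occluded to trained was −1.93 ± 0.33 (log2, SE, adjusted p = 0.0397 by edgeR with Benjamini-Hochberg adjustment). These levels rest on 51 and 43, 11 and 7, and 17 and 10 UMIs, and 28 of the 51 UMIs in occluded 1 were in 1 cell. In Mes1, C1qa was at 212 and 280 CPM in occluded and 190 and 55.0 in trained libraries. In the same order it was at 55.4 and 92.5 against 78.5 and 0 CPM in Mural1 and 161 and 292 against 282 and 196 in Mural2. MicroG1 had 11790 and 11729 against 10274 and 11566 CPM, and all cells outside Mes2 had 975 and 1118 against 1057 and 1345. Whether the change from occluded to trained in Mes2 differed from these was not tested. The summed microglia and macrophage markers, C1qa among them, were at 510 and 359 CPM in the occluded, 131 and 190 in the trained and 210 and 183 in the control Mes2 cells, with none of the 8 at 0, and their part in the result was not tested. Without occluded replicate 1, trained replicate 1 or trained replicate 2, the adjusted p by edgeR was 0.162, 0.470 and 0.0922.

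**Figure D5:**
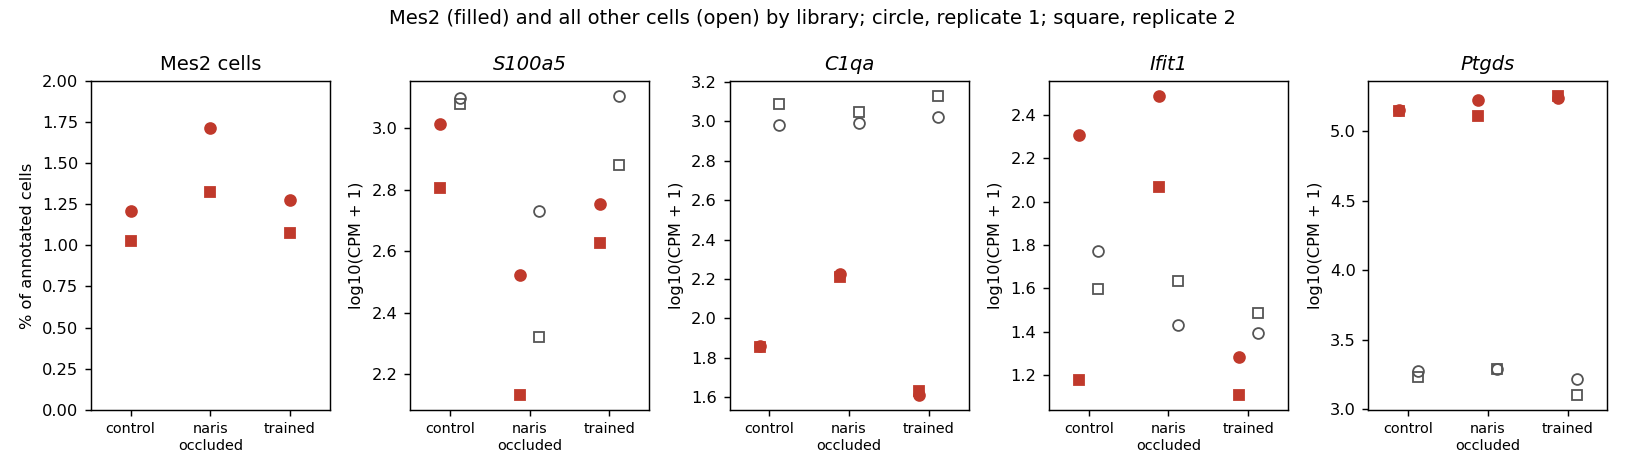
The share of Mes2 among annotated cells (first panel, %) and the log10 of CPM plus 1 of S100a5, C1qa, Ifit1 and Ptgds (other panels) in Mes2 cells (filled) and all other cells (open), with a circle for replicate 1 and a square for replicate 2 of each condition. In Mes2, S100a5 is at 1031 and 641 CPM in control and at 332 and 135 CPM in occluded libraries, and C1qa at 168 and 161 CPM in occluded and 39.9 and 41.6 CPM in trained libraries.

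The genes that lead Mes2 were not called between conditions by edgeR on all 6 libraries with the filter on low counts, but Ptgds and Cyp26b1 were called under some alternatives. Ptgds was at 173230 and 179304 CPM in trained and at 143239 and 139040 in control cells, a log2 change of 0.37 ± 0.08 that missed the threshold (adjusted p = 0.390, edgeR with Benjamini-Hochberg adjustment). For Col1a1 and Dcn, the log2 changes from control lay between −0.20 and 0.42 in occluded and between −0.16 and 0.36 in trained cells. In trained against control cells, Ptgds was called with no filter and without occluded replicate 1, occluded replicate 2 or control replicate 1. In occluded against control cells, Cyp26b1 was called with no filter and without occluded replicate 1 or control replicate 2. Of the 13 mitochondrially encoded genes, 11 had lower and 2 higher values in occluded than in control cells, and none was called in that comparison. Their median log2 change was −0.20, against 0.0036 over all 4100 genes, of which 2072 had higher and 2028 lower values. Of 14 tested transcription factors of the brain coverings, 2 had higher and 12 lower values in trained than in control cells (median −0.33). In trained against occluded cells the split was 1 higher and 13 lower (median −0.25), and none was called in either comparison. All genes split 2028 higher and 2072 lower, and 2058 and 2042, in these comparisons.

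The test of whether a change in Mes2 differed from that of other cells of the same libraries called no gene against Mural2, over 5148 genes, after occlusion (103 more positive and 88 more negative at an unadjusted p under 0.05) or after training (105 and 124). Against all cells outside Mes2, over 14679 genes, 4 genes had a more positive change in Mes2 after occlusion (0.0272%) and 1 after training (0.00681%), and none a more negative change (186 and 245 at an unadjusted p under 0.05). These were Tyrobp and Lyz2, genes of microglia and other myeloid cells, Tubb4a, a tubulin of glia and neurons, and the interferon-induced Ifit1 after occlusion, and Ttr (transthyretin, a choroid plexus product) after training. Ttr had 204 UMIs in trained replicate 1, of which 203 were in 1 cell, and 1 or 0 in each other Mes2 library.

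Mes2 cells made up 1.72% and 1.32% of annotated cells in the occluded, 1.28% and 1.07% in the trained and 1.21% and 1.02% in the control libraries. The log2 change of their number was 0.44 ± 0.29 in occluded against control (adjusted p = 0.528 over 38 clusters, edgeR), 0.075 ± 0.29 in trained against control (adjusted p = 0.869) and −0.36 ± 0.29 in trained against occluded libraries (adjusted p = 0.401). Occluded shares were above control shares in both libraries, and the exact two-sided permutation p was 0.333, the smallest that 2 against 2 libraries allow. For trained against control the exact permutation p was 0.667, and for trained against occluded 0.333. A difference in Mes2 cell number was thus not detectable with these libraries.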

How the data were processed

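Cells of 6 libraries, each a pool of 3 mice, were captured in droplets (10x Chromium, 3′ v2 kit) and sequenced on a NextSeq500. The authors made UMI counts with Cell Ranger 2.0.0 (build mm10 in the submitters' processing notes) and deposited them without normalization, as whole counts of 18560 genes in 52549 barcodes. They clustered cells with Seurat 2.2.1, with UMI number and mitochondrial share regressed out, and removed doublets before deposit, so none was removed here. Library and cluster of each cell came from the deposited annotation. In the 2 trained libraries (17275 cells), the prefix of each barcode names the other replicate than the library column does, and this column, which fits Xist and Ddx3y, was used. The names Mes1 and Mes2 are exchanged in the annotation and were assigned by cell numbers per library over all 38 clusters. The log-normalized table and the annotation of neurons were not used.

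Counts were summed per cluster and library and scaled to CPM over all genes. Libraries held 6705 to 10570 annotated cells, with medians of 1028 to 1723.5 UMIs. Ratios between clusters used 10 CPM as pseudocount, a mean of at least 50 CPM on the higher side and a log2 ratio of 2 in all 6 libraries. A count of 0 was given a limit of 3 counts over the cluster (2.15 CPM in Mes2, 3.77 in Mes1, 5.01 in Mural1, 2.56 in Mural2), which covers counting error only. Conditions were compared with edgeR 4.0.16 in R 4.3.3 (quasi-likelihood test, TMM factors, filterByExpr on the groups, Benjamini-Hochberg adjustment at 0.05) on all 6 libraries, with DESeq2 1.42.0, other size factors, filters and cell sets, a replicate block and the omission of single libraries as alternatives. Only the test of Mes2 genes in occluded against control libraries and that of a difference from Mural2 after occlusion were run on simulated counts. Differences of change had library and cell set as terms. Python 3.11.15 with NumPy 2.4.6, pandas 2.3.3 and SciPy 1.17.1 was used for the rest.

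Members, gene lists and tests were chosen with earlier results of these data known. Named were the label marks, list members with at least 100 CPM in 1 of the 4 clusters, the 15 genes with the largest ratios in each direction against Mes1 and the mural clusters, the 20 genes with the largest ratio to the next cluster and every gene called between conditions. The genes set beside Lum, the interferon genes other than Ifit1 and the totals without Ptgds were chosen after seeing the data. The labels give replicate numbers, which follow the sex of the pool as read from Xist and Ddx3y. Deviations of same-numbered libraries from their group means had correlations of 0.0354, 0.0471 and −0.0278 over 4096 genes, so the numbers were not taken to pair libraries. Xist and Y-linked genes were left out of these correlations, which therefore do not measure an effect of sex. Sharing of animals between libraries was not tested. Some genes are not reported here.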

Additional observations from a re-analysis of the deposited data

Results flagged for a closer look

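The change of 5 genes in Mes2 differed from that in all cells outside Mes2, by edgeR's test of the difference with Benjamini-Hochberg adjustment over 14679 genes. Each rests on few UMIs or few cells, and the part of RNA or cells of other types was not tested.

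After occlusion, Tyrobp, an adaptor of myeloid receptors, changed by 1.69 ± 0.38 (log2, SE) more in Mes2 than in all other cells (adjusted p = 0.0359), with 112 and 150 CPM in occluded and 50.3 and 28.2 in control Mes2 cells. Tyrobp was also higher in the occluded than in the control libraries of Mes1 (78.8 and 82.3 against 24.7 and 30.9 CPM) and of Mural2 (87.0 and 150 against 26.4 and 54.7 CPM). The libraries overlapped in Mural1 (37.0 and 71.1 against 115 and 33.7 CPM) and in MicroG1 (4248 and 4466 against 4340 and 4217 CPM). Lyz2, the lysozyme of macrophages, changed by 2.07 ± 0.46 more than in all other cells (adjusted p = 0.0359), with 39 and 23 UMIs in occluded and 8 and 1 in control Mes2 cells, and 34 of the 39 were in 1 cell. Lyz2 stood at 34.5 and 24.7 CPM in occluded and 0 and 7.73 in control Mes1 cells, and at 187 and 47.2 against 17.6 and 31.9 CPM in Mural2. In Mural1 Lyz2 was at 27.7 and 128 against 23.0 and 11.2 CPM. The test of a difference from Mural2 after occlusion gave 0.030 ± 0.70 for Tyrobp and 0.074 ± 0.83 for Lyz2 (log2, SE, adjusted p = 1 for both, edgeR), so neither change was shown to be particular to Mes2. Tubb4a had 5 and 17 UMIs in occluded and 0 in both control libraries (adjusted p = 0.0359), and 10 of the 17 were in 1 cell. Microglia and macrophage markers were at 510 and 359 CPM in occluded and at 210 and 183 in control Mes2 cells.

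Ifit1, an interferon-induced gene, changed by 1.43 ± 0.32 more in Mes2 after occlusion (adjusted p = 0.0424). Its Mes2 levels were 306 and 116 CPM in occluded, 201 and 14.1 in control and 18.1 and 11.9 in trained libraries, so occluded and control libraries overlapped. Of the 93 UMIs in occluded replicate 1, 32 were in 1 cell. In cells outside Mes2 Ifit1 was at 25.9 and 41.9 CPM in occluded and at 58.1 and 38.8 in control libraries. It stood at 182 and 57.6 CPM in occluded and 90.5 and 101 in control Mes1 cells, and at 0 and 42.9 against 4.39 and 31.9 CPM in Mural2. Ttr differed after training (adjusted p = 3.03e-15), with 204 UMIs in trained replicate 1, 203 of them in 1 cell.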

How the results depend on the processing

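Counts of called genes between conditions were low and unstable. In naris-occluded against control cells, 1 call became 0 with DESeq2, 6 with no filter on low counts, 0 without cells holding markers of another class (10 to 20 cells per library and 216 genes tested were left), and 0 to 7 when single libraries were left out (0 without occluded replicate 2, 4 without occluded replicate 1, 7 without control replicate 2). In trained against control cells, 0 calls became 4 with no filter, 1 with cells of at least 1000 UMIs, and 0 to 6 without single libraries (6 without control replicate 2, 2 without control replicate 1 or occluded replicate 1, 1 without occluded replicate 2). In trained against occluded cells, 1 call became 0 with DESeq2, 24 with no filter, 2 with cells of at least 1000 UMIs, 0 without cells holding other markers and 0 to 19 without single libraries (0 without trained replicate 1, 3 and 7 without occluded replicates 1 and 2, 19 and 15 without control replicates 1 and 2). The filter on other markers dropped cells with at least 2 UMIs of a list. Its oligodendrocyte list held Pdgfra, which had a UMI in 21.4% of Mes2 cells, so cells could also be dropped for a Mes2 transcript. A lone library left in a condition was taken to vary like the other conditions. The cause was not tested. The S100a5 change lay between −2.73 and −1.34 and the C1qa change between −2.001 and −1.85 without single libraries, and the S100a5 change was −1.13 without cells holding other markers (adjusted p = 0.950, edgeR). Among list members, Ptgds, Cyp26b1 and Aldh1a1 were called in trained against occluded cells with no filter and without either control library, Ptgds in that comparison and in occluded against control without occluded replicate 1, mt-Co1 in trained against occluded cells with no filter and without control replicate 1 or trained replicate 2, Ttr in trained against either other condition with no filter, and Fabp5 against control, after occlusion and after training, without control replicate 2. The test of a difference from Mural2 after training called 2 genes with no filter in place of 0.

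With the replicate number, which follows the sex of the pool, as a replicate block, edgeR called 1, 0 and 6 genes in the same 3 comparisons, the 6 being C1qa, Cxcl10, Ifit1, Ifit3 and Lyz2, lower, and S100a5, higher, in trained cells. The log2 changes of Mes2 cell number under the block were 0.44, 0.072 and −0.36, and none was called. With nonneuronal cells as the total the changes were 0.36, 0.15 and −0.21. With Mes1, Mes2, Mural1 and Mural2 cells as the total they were 0.17, 0.067 and −0.0998. With cells of at least 1000 UMIs they were 0.49, 0.395 and −0.090, and none of these was called. Without single libraries they ran from 0.24 to 0.61 in occluded against control, from −0.54 to −0.16 in trained against occluded and from −0.061 to 0.20 in trained against control, where the sign turned without trained replicate 1 (−0.061) and without control replicate 2 (−0.038).

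Between clusters, the counts moved with the threshold on level and the pseudocount. At 50 CPM as pseudocount, 14 genes were higher and 22 lower than in Mes1, 35 and 60 for Mural1, and 27 and 55 for Mural2. With a minimum level 4 times as high, 24 were higher than in Mes1, 47 higher and 106 lower than in Mural1, and 41 and 83 than in Mural2. With 1 CPM as pseudocount, 92 were lower than in Mes1. Without single libraries the ranges were 58 to 64 and 64 to 76 against Mes1, 88 to 97 and 202 to 217 against Mural1, and 84 to 91 and 138 to 147 against Mural2. The Col1a1 level was 260 CPM as a mean of single cells and 376 CPM with Ptgds left out of the total, a scaling chosen after seeing the data. Depth limits genes below about 100 CPM, since the smallest library held 141938 Mes2 UMIs.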

Other observations

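Isg15, an interferon-induced ubiquitin-like protein, was in Mes2 at 457 CPM in control replicate 1 and 35.2 in control replicate 2, at 197 and 154 in the occluded and at 65.3 and 53.5 in the trained libraries. In control replicate 1, 27 of 121 Mes2 cells held an Isg15 UMI and in control replicate 2 4 of 79. Ifit3 was at 163 and 70.5 CPM in control, 276 and 97.3 in occluded and 72.5 and 29.7 in trained libraries. Cxcl10, an interferon-induced chemokine, had 38 UMIs in occluded replicate 1, 22 of them in 1 cell, 10 in control replicate 1 and at most 1 in each other library. These genes were chosen after their values were seen and none was called between conditions by edgeR on all libraries with the filter on low counts and no replicate block. Ifit3 and Cxcl10 in trained against occluded cells, and Isg15 in each comparison, were called under some of the alternatives, the first pair with the block.

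The metallothionein gene Mt1, which binds zinc and copper, was close between libraries, from 1295 to 1663 CPM, and the immediate early gene Fos ran from 43.5 to 208 CPM, both in trained libraries.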
